A study of Mus musculus with 22 samples.

Results

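DNA methylation was compared between whole wild-type mouse embryos at E10.5 (a stage named by embryonic day) and wild-type fetal livers at E14.5, by whole genome bisulphite sequencing of 2 samples of each. These 4 libraries were taken by their labels from the 22 samples of the series, of which 12 are bisulphite libraries. All 4 samples came from FVB mice labelled wildtype, bred in an inbred line that is homozygous for many tandem copies of a GFP reporter under erythroid control (an alpha-globin promoter with its HS-40 enhancer), so embryos and livers both carry it. Both embryos are labelled male, liver 1 is labelled male and liver 2 female. An E10.5 embryo is a mixture of all its tissues, and an E14.5 liver is a mixture of blood-forming and liver cells. A change within a cell type and a change in the mixture of cell types therefore cannot be told apart, and neither can stage and tissue. Besides these, the wild-type E18.5 livers (n = 2) and the E10.5 embryos and E14.5 livers homozygous for MommeD28, a null allele of Rlf (n = 2 of each), were used for reference. RNA counts of 3 wild-type E14.5 livers gave the expression of named genes as CPM, the counts of a gene scaled to the library total. No RNA of E10.5 embryos was analysed here, so expression was not compared between the tissues.

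Mammalian cells methylate cytosine mostly where it precedes guanine (CpG). Most CpGs of somatic tissues are methylated, whereas dense clusters of CpGs at gene starts, the CpG islands, are mostly kept free of methylation. Dnmt1 copies methylation onto new strands, Dnmt3a and Dnmt3b place it anew, and the Tet enzymes oxidise it. The fetal liver is the main site of blood formation in mid-gestation, and most of its cells at E14.5 belong to the red cell lineage, beside hepatoblasts, megakaryocytes, myeloid cells, endothelium and mesenchyme. Bisulphite converts unmethylated cytosine so that it is read as thymine, and the share of reads that still show cytosine is the methylation level of that CpG.

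Sequences from 4 sites that lost and 2 that gained methylation are printed here with their levels, so that the sites behind the results can be seen. They were picked for genes with a known role after the values were seen, from among the large changes. Each is the stretch of 160 bp with the largest summed difference over counted CpGs of a window, tile or region that is described further on, and its ends may run a few bases past it, so its levels are a description and were not tested. All are reference (NCBIM37, mm9) sequence 5′ to 3′ on the strand of the gene, with the counted CpGs in capitals, and FVB substitutions are not shown. Positions relative to a transcription start site (TSS) count from 0 at the start itself. The first lies in an intron of Runx1, which encodes a transcription factor needed for the first blood stem cells, at chr16:92825531-92825690 (minus strand), 621 to 780 bp after the TSS. Its 7 CpGs were methylated at 90.4% and 89.3% in the embryos and at 7.94% and 10.8% in the livers.
Runx1: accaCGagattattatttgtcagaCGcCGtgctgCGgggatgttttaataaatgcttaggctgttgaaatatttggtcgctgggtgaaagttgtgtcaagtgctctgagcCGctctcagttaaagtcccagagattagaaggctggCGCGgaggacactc
The second, at chr5:91201611-91201770 (plus strand), lies 150 to 309 bp after the TSS of Pf4, a chemokine of megakaryocytes and platelets, and overlaps an exon. Its 8 CpGs stood at 93.7% and 88.3% in the embryos and at 12.05% and 14.53% in the livers.
Pf4: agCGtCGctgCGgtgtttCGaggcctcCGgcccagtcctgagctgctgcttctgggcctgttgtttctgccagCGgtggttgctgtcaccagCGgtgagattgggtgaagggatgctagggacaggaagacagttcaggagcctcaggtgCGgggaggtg
The third, at chr2:103797825-103797984 (plus strand), lies upstream of Lmo2, from -318 to -159 bp relative to its TSS, and Lmo2 encodes an adaptor of the blood transcription factor complex. Its 5 CpGs stood at 72.1% and 78.2% in the embryos against 5.16% and 11.5% in the livers.
Lmo2: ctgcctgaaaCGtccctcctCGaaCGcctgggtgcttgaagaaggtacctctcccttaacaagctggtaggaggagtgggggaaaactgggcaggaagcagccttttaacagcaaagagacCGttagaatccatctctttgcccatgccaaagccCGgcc
The fourth, at chr9:120025576-120025735 (plus strand), overlaps an exon of Slc25a38, a mitochondrial carrier that brings in glycine for haem synthesis. Its 6 CpGs stood at 86.4% and 85.2% in the embryos against 13.7% and 10.3% in the livers.
Slc25a38: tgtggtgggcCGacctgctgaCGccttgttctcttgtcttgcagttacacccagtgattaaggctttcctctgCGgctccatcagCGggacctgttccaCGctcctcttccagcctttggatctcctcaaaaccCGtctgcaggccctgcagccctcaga

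Of the sites that gained methylation, the first, at chr19:37760923-37761082 (plus strand), overlaps an exon of Cyp26c1, an enzyme that degrades retinoic acid, 852 to 1011 bp after its TSS. Its 14 CpGs stood at 4.49% and 1.58% in the embryos and at 63.1% and 64.0% in the livers.
Cyp26c1: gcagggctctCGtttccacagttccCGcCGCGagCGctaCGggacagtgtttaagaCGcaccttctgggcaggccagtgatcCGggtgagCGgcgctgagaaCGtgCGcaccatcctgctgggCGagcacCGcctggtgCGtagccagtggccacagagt
The second, at chr8:124860721-124860880 (plus strand), overlaps an exon inside Zfpm1, which encodes Fog1, the partner protein of GATA1. Its 23 CpGs stood at 9.11% and 8.62% in the embryos against 86.3% and 88.2% in the livers.
Zfpm1: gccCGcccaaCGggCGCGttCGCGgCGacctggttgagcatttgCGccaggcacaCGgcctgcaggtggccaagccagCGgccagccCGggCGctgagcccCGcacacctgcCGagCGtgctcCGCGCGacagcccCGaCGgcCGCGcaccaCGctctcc
The 4 stretches that lost methylation held 5 to 8 counted CpGs each, and those that gained it held 14 and 23. Over all called tiles the gap was smaller, with a median of 17 reference CpGs in tiles higher by over 30 points and 13 in tiles lower by over 50 points and in all tiles.

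The embryo libraries held 17.2 and 16.3 reads per reference CpG on chromosomes 1 to 19 and the liver libraries 33.5 and 33.0, so the livers were the deeper libraries. Levels were computed over the 13,947,818 CpGs that had at least 6 reads in all 4 libraries. The unmethylated lambda DNA added to each sample read as methylated in 0.0412% to 0.0590% of the reads at its CpGs, which bounds failed conversion in that control only. Liver RNA held the transcripts that define its cells, with 20,389 CPM of the beta-globin gene Hbb-b1 and 26,639 CPM of the albumin gene Alb. With 2 libraries in each group, a single value cannot reach a two-sided exact permutation p below 0.33. The authors described the E14.5 livers, wild-type and mutant, as those of littermates, so the spread between the livers may lie within a litter. Nothing in the labels says whether the embryos were littermates, and p-values measure the spread between these libraries. The edgeR test used below estimates this spread partly by pooling over tiles or windows. Its small p-values for a single tile or window thus rest on pooling and read depth as well.

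The livers were less methylated than the embryos. The autosomal level was 69.98% and 71.2% in the embryos and 55.8% and 57.9% in the livers. The group means were 70.6% ± 0.882 (SD, n = 2) and 56.8% ± 1.45 (SD, n = 2), a difference of -13.8 percentage points. Each liver lay below each embryo, by 12.1 to 15.4 points (exact permutation p = 0.33, the smallest possible). Every autosome took part, from a fall of 11.5 points on chromosome 11 to a fall of 15.2 points on chromosome 14. The MommeD28 embryos stood at 72.9% ± 0.376 (SD, n = 2) and the MommeD28 livers at 59.2% ± 0.752 (SD, n = 2), which share no library with the wild-type samples and differed by -13.7 points. Wild-type E18.5 livers stood at 60.9% ± 0.213 (SD, n = 2), between the E14.5 livers and the embryos.

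The fall was spread over the genome. Among 21,854 windows of 100 kb with at least 200 counted CpGs, both livers lay below both embryos in 97.9%, and the median difference was -18.7 points (range -31.0 to 10.52). The median window stood at 80.4% in the embryos and 59.2% in the livers. Gene-poor windows fell furthest, with a median of -22.0 points where no protein-coding gene starts, -12.9 points with 1 or 2 starts, -8.87 points with 3 to 5 and -6.13 points with 6 or more. They also began highest, with embryo medians of 83.2%, 69.4%, 62.3% and 54.6% in the same order. The 5th percentile of the difference varied less, at -26.8, -24.3, -24.8 and -24.6 points. The mean difference was above 0 in 168 windows, and the highest was at chr19:37700001-37800000, over Exoc6, Cyp26c1 and Cyp26a1, at 10.52 points. Cyp26a1 encodes a second enzyme that clears retinoic acid.

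At the scale of 1 kb, 643,082 tiles held at least 8 counted CpGs, and what changed was mainly the top of the range. Tiles at 90% or more made up 24.8% and 24.3% of all tiles in the embryos but 0.51% and 0.889% in the livers. The band from 50% to 70% filled in the livers, and held 8.83% and 8.24% of tiles in the embryos and 50.5% and 43.3% in the livers. The unmethylated end did not shift to the same degree, with 4.48% and 4.40% of tiles under 10% in the embryos and 4.36% and 4.31% in the livers. The median tile difference was -16.1 points (quartiles -21.9 and -9.23). For comparison, replicate libraries differed by a median of 2.41 points between the embryos and 3.03 points between the livers, and by over 15 points in 0.458% and 0.252% of tiles. Across tiles, which are not independent replicates, Pearson's r was 0.981 between the embryos, 0.978 between the livers and 0.840 to 0.858 between the tissues.

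**Figure D1:**
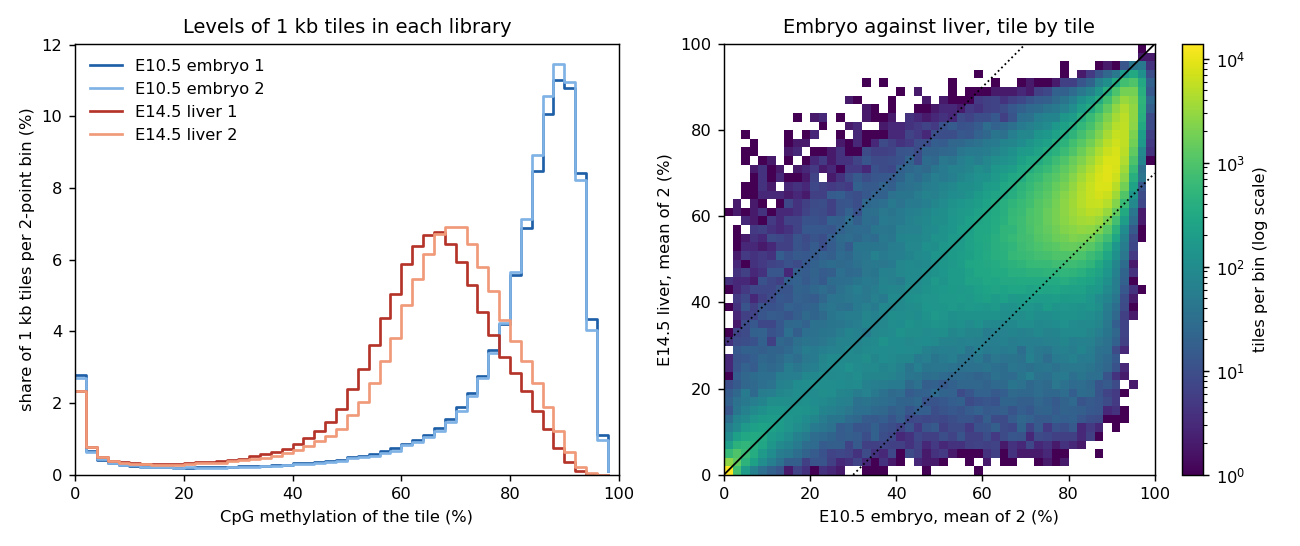
Left, methylation level of 1 kb tiles (x axis, percent) against the share of all tiles in each bin of 2 points (y axis, percent), as 1 stepped line for each of the 4 libraries. Right, mean level of the 2 embryos (x axis, percent) against that of the 2 livers (y axis, percent), coloured by the number of tiles on a log scale, with equality as a solid line and differences of 30 points dotted. The median tile lay 16.1 points below equality, and tiles under 10% in the embryos mostly stayed near 0.

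In the edgeR quasi-likelihood test on counts (adjusted p under 0.05 and a difference over 15 points), 351,694 tiles (54.7% of those tested) were called lower in liver and 8,059 (1.25%) higher. At the same adjusted p without a minimum difference, 562,229 tiles (87.4%) passed. All 359,753 tiles that differed by over 15 points passed the test, so the 15-point limit alone set the calls. Since the general fall lies close to 15 points, the calls depend on where the zero is set. Taken relative to the median difference of all tiles, -16.1 points, 28,162 tiles were lower and 59,960 higher. On that scale a tile that did not change can count as higher. The 28,520 tiles under 10% in the embryos, which had little room to fall, changed by a median of 0.349 points. Larger differences stand out from the general fall, and 37,341 tiles (5.81%) were lower by over 30 points and 1,637 (0.255%) higher by over 30 points. At over 50 points, a limit chosen after seeing the data, 3,610 tiles (0.561%) were lower and 130 (0.0202%) higher.

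The extent of the fall differed by annotation and by CpG content. Intergenic tiles fell most, from a mean of 79.1% to 61.7%, and 66.4% of these 276,678 tiles were called lower. Intronic tiles fell from 80.9% to 65.5%, with 54.2% called, and exonic tiles from 82.1% to 69.6%, with 38.2% called. Tiles over a TSS stood at 33.2% in the embryos and 26.9% in the livers, and 21.8% were called lower. Among tiles at 70% or more in the embryos, which could all fall, 74.8% of intergenic, 61.6% of TSS, 59.8% of intronic and 41.3% of exonic tiles were called lower, so the order of exons and intergenic DNA stayed. By CpG content, tiles with 8 to 11 reference CpGs fell from 82.3% to 63.7%, those with 12 to 19 from 80.4% to 65.0% and those with 20 to 39 from 70.5% to 60.2%. Tiles with 40 or more stood at 12.3% and 11.5%, and 2.999% of them were called lower.

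**Figure D2:**
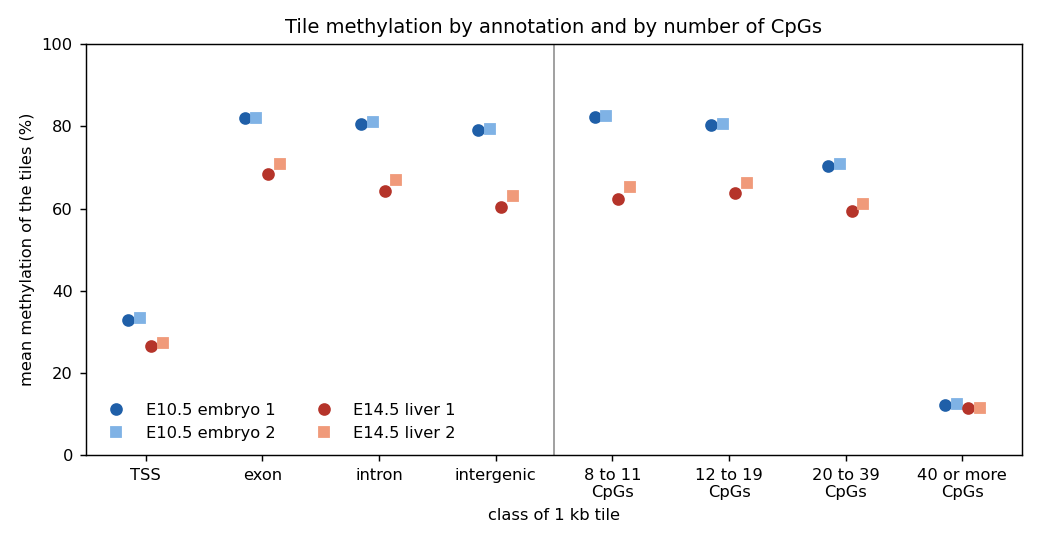
Mean methylation of 1 kb tiles (y axis, percent) in each of the 4 libraries, by annotation (TSS, exon, intron, intergenic) and by the number of reference CpGs in the tile. Intergenic tiles and tiles with 8 to 11 CpGs show the widest gap between embryos and livers, and tiles with 40 or more CpGs lie between 11.4% and 12.4% in all 4 libraries.

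Of 19,974 tiles with 40 or more CpGs, 599 were called lower and 179 higher, 75 of them by over 30 points. Of these tiles, 16,040 stood under 10% in all 4 libraries, by which they were chosen, with means of 1.09% and 1.49%. Tiles within 2 kb of these, the shores of CpG islands, fell from 48.2% to 40.5%, with 25.2% called lower and 2.43% higher. Over 20 kb away, 61.7% of tiles were called lower and 1.17% higher.

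Regions of at least 2 called tiles were ranked by the size of their fall. The largest was inside Taok3, a stress kinase gene, over exonic sequence at chr5:117583001-117585000, where 30 CpGs stood at 79.2% and 81.1% in the embryos and at 4.72% and 7.20% in the livers (-74.2 points). The next lay in intergenic DNA 6,346 bp from Ccl3, a chemokine of macrophages, at chr11:83453001-83455000, with 85.4% and 83.8% in the embryos against 11.7% and 14.98% in the livers. Regions were required to have no overlap between the groups. Intronic sequence of Ahi1, the neighbour of the blood transcription factor gene Myb, fell by 66.3 points at chr10:20745001-20747000. Other regions of the 8 largest falls lay in an intron of Hace1, over exons of Atpif1 and Treml2, and 17,897 bp from 1700013D24Rik. Atpif1 encodes an inhibitor of the mitochondrial ATP synthase that is needed for haem synthesis, and its region fell by 66.0 points. The widest runs of tiles lower by over 50 points, which were listed after the data were seen, lay in or near Pank1, Gfi1b, Recql5, Bzrap1, Ormdl3 and Podxl. That of Pank1, a pantothenate kinase, went from 87.5% and 86.6% to 26.8% and 27.2%, and that 6,970 bp from Gfi1b, a repressor needed for red cells and megakaryocytes, from 67.8% and 70.4% to 12.9% and 15.03%.

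The third largest fall covered Mir142 and A430104N18Rik at chr11:87567001-87571000, 3,043 bp from Bzrap1, and the 58 CpGs of its 3 called tiles went from 82.2% and 85.9% to 10.8% and 15.3%. Mir142 encodes microRNAs that are abundant in blood cells. Over the whole span, which includes sequence outside those tiles, 62 CpGs were counted, and both livers lay below both embryos at 61. The mature sequences, from RefSeq's table for GRCm38.p6, are shown with the seed (bases 2 to 8) in capitals because they name the gene product of this region. The levels of the microRNAs themselves were not measured.
mmu-miR-142a-5p: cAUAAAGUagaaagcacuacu
mmu-miR-142a-3p: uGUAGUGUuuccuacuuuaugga
The stretch of the region with the largest summed difference, at chr11:87570615-87570774 (plus strand), held 9 counted CpGs at 85.1% and 86.5% in the embryos and at 7.76% and 14.3% in the livers.
Mir142 region: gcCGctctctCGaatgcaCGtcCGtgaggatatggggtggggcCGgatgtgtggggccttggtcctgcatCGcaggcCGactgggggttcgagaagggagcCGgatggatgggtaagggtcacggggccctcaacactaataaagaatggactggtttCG

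Windows of 1 kb to either side of a TSS were tested for 18,515 of 21,418 protein-coding genes. The TSS of a gene was the outer 5′ end of its annotation, so any start further inside a gene was not tested as a window. Of these, 3,691 (19.9%) were called lower in liver and 91 (0.491%) higher, and relative to the median of all windows (-0.33 points) the counts were 3,621 and 94. All 3,782 windows that differed by over 15 points passed the test, so here too the limit alone set the calls. By over 30 points, 550 (2.97%) were lower and 14 (0.0756%) higher. Among the 10 largest falls, Fermt3, an integrin activator of blood cells and platelets, stood at 86.5% and 89.96% in the embryos and at 17.5% and 24.0% in the livers (edgeR adjusted p = 7.33e-22), with 212 ± 13.3 CPM (SD, n = 3) in liver RNA. Pf4 stood at 90.5% and 84.8% in the embryos and at 19.4% and 21.1% in the livers (edgeR adjusted p = 3.7e-22), with 152 ± 6.46 CPM in liver RNA. Lmo2 stood at 77.6% and 81.1% against 13.6% and 16.3% (edgeR adjusted p = 3.89e-19), with 308 ± 21.9 CPM in liver RNA. Runx1 stood at 88.4% and 86.6% against 24.9% and 22.3% (edgeR adjusted p = 1.33e-22), with a mean of 20.6 CPM. In each of these genes the highest liver lay over 60 points below the lowest embryo.

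The others of the 10 were 5730460C07Rik, Fcrls, Dock2, Cd86, Pik3cg and Gm885, with falls of 63.2 to 70.1 points. Liver RNA of these genes ranged from 1.70 CPM for 5730460C07Rik, 2.76 CPM for Gm885 and 2.83 CPM for Fcrls to 22.7 CPM for Pik3cg. Dock2 activates Rac in white blood cells, Cd86 is a costimulatory receptor of antigen-presenting cells and Pik3cg is the catalytic subunit of the phosphoinositide 3-kinase of blood cells. The window of 5730460C07Rik fell furthest, from 84.2% and 84.3% to 12.5% and 15.8%. The window of Gm885 overlaps that of Pecam1, which starts on the other strand and encodes an adhesion molecule of endothelium and platelets. The Pecam1 window fell from 84.1% and 89.5% to 25.6% and 25.3%. At single CpGs, both livers lay below both embryos at 35 of 38 counted CpGs of the Runx1 window, 25 of 25 of Pf4, 14 of 14 of Lmo2 and 24 of 24 of Fermt3. In Runx1, the 5 CpGs furthest upstream fell less, 4 of them by 2.76 to 13.2 points on average and 1 by 33.5 points.

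**Figure D3:**
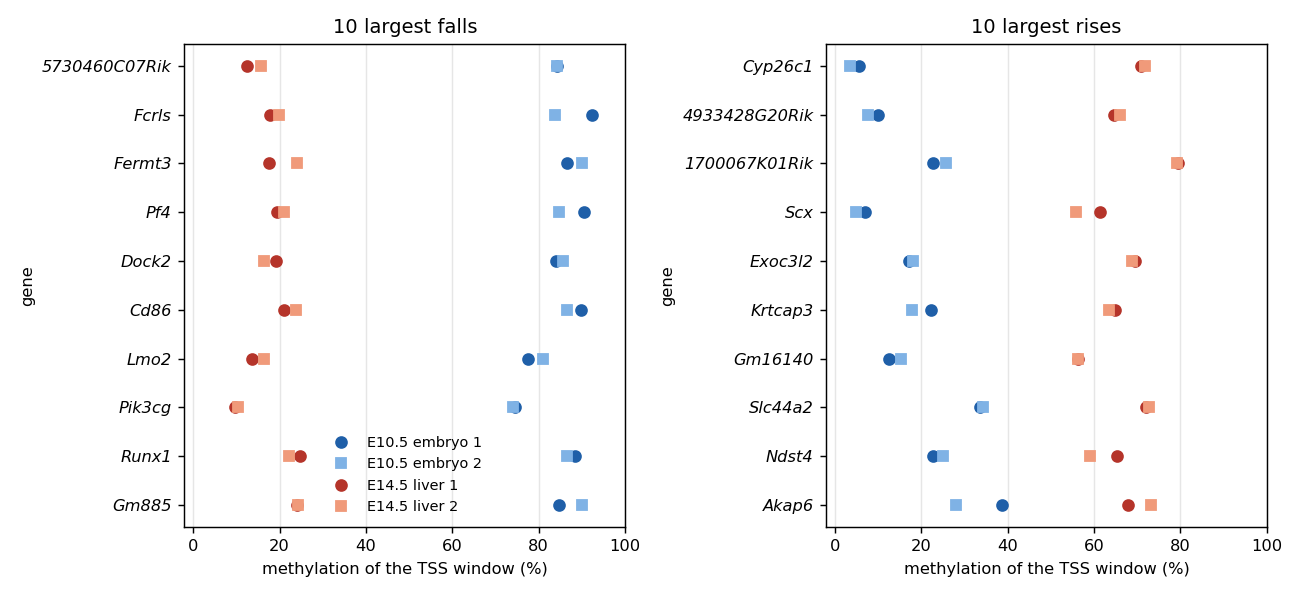
Methylation (x axis, percent) of the TSS windows with the 10 largest falls and the 10 largest rises among called windows, with 1 point for each of the 4 libraries. Embryos and livers do not overlap in any of the 20, as the choice of the windows required.

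Liver RNA was set against the size of the fall for windows that began high. Among 4,307 windows at 70% or more in the embryos, 3,179 (73.8%) were called lower and 469 (10.9%) by over 30 points. The 58 of these windows that fell by over 50 points had a median of 13.3 CPM in liver, and 56.9% of their genes had at least 10 CPM. With falls of 30 to 50 points, 23.1% of 411 had at least 10 CPM, and with falls of 15 to 30 points 9.68% of 2,710 had. Of the 1,128 with smaller falls or a rise, 16.1% had at least 10 CPM. Of genes with windows under 10% in the embryos, 65.2% had at least 10 CPM. Genes of different CpG content and length enter these groups, and this is a description across genes, not a test.

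**Figure D4:**
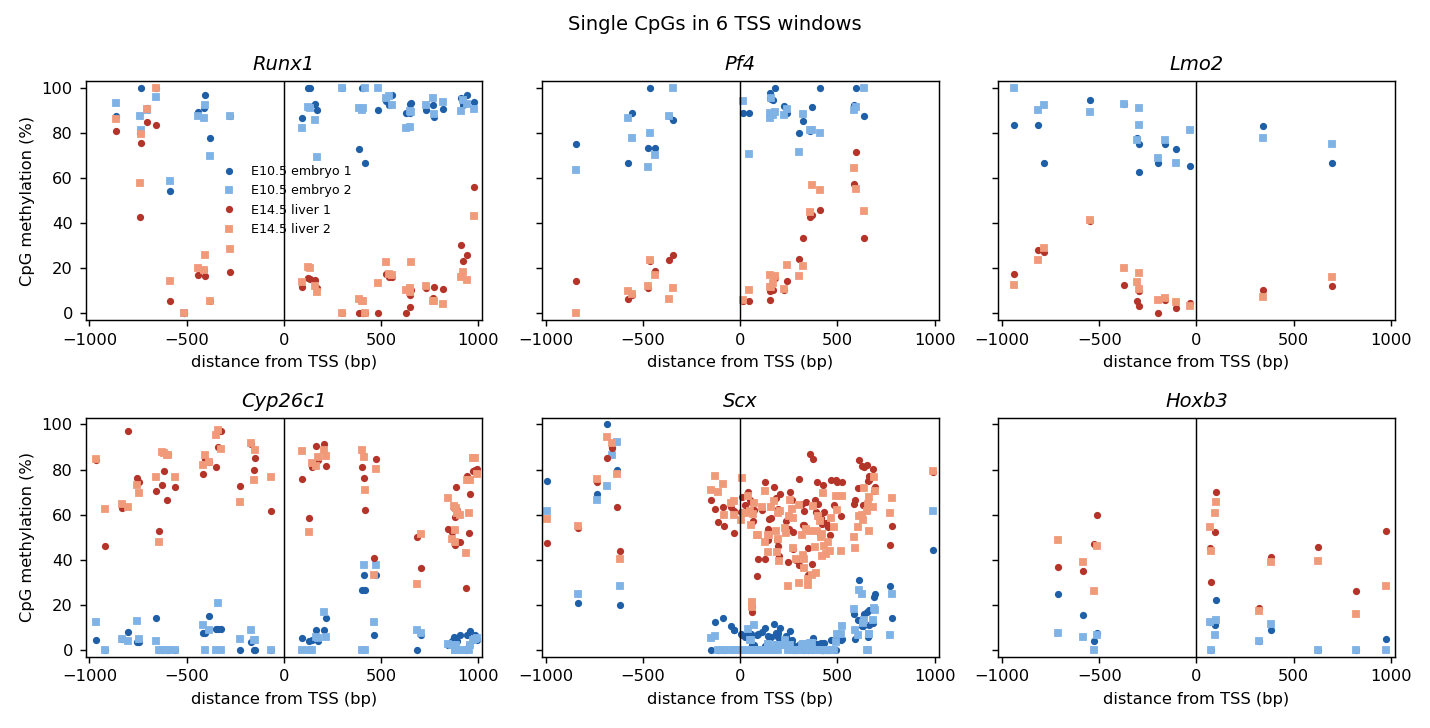
Methylation of single CpGs (y axis, percent) by distance from the TSS (x axis, bp) in the windows of Runx1, Pf4, Lmo2, Cyp26c1, Scx and Hoxb3, with 1 colour for each of the 4 libraries. Livers lie below embryos at most CpGs of the first 3 windows (35 of 38 in Runx1) and above them at most CpGs of the other 3 (94 of 98 in Scx).

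Genes of the red cell lineage split by where they start. Globins, the haemoglobin chains, were among the most abundant RNAs, with 10,284 CPM for Hba-a1. Of 7 globin genes, 2 had a window with enough CpGs, too few to set against the 19.9% of all windows called lower. That of Hba-x was not called, at 71.8% and 71.1% in the embryos and 69.8% and 67.8% in the livers. That of Hba-a1 was called lower, from 42.3% and 49.2% to 20.6% and 17.1%. Since Hba-a1 has a near-identical copy, its reads could be split between them. All 9 genes of haem synthesis start in windows under 10% in both tissues, so none was called. Of 181 tiles in these genes and 5 kb to either side, 36 (19.9%) were called lower, against 46.5% of all tiles placed in this way, and 17 (9.39%) were lower by over 30 points, against 5.17%. Here and in the lists below, tile shares were not matched by level in the embryos. Tiles under 15% in the embryos could not be called lower. The exonic tile of Slc25a38 at chr9:120025001-120026000 went from 82.6% and 81.2% to 13.4% and 10.1% (edgeR adjusted p = 2.46e-77). An intronic tile of Alad, which encodes the second enzyme of the pathway, went from 85.6% and 85.0% to 20.3% and 22.8%. An exonic tile of Uros, a later enzyme of the pathway, went from 84.9% and 85.3% to 14.9% and 22.9%.

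Of 15 windows of erythroid membrane proteins and receptors, 7 were called lower, 5 of them by over 30 points, and none higher, against 19.9% and 2.97% of all windows lower by these limits. In the embryos 5 windows of the list stood at 70% or more. All 5 were called lower and 4 by over 30 points, against 73.8% and 10.9% of all such windows. Ermap, which carries a blood group antigen, fell from 74.8% and 70.4% to 14.8% and 14.1%. Add2, an adducin of the membrane skeleton, fell from 74.8% and 75.5% to 25.6% and 28.3%, and Epb4.2, protein 4.2 of the same skeleton, from 66.9% and 68.9% to 19.5% and 27.1%. The anion exchanger gene Slc4a1, at 5,099 CPM in liver, went from 69.1% and 70.3% to 44.6% and 46.7%. The Epor window, for the receptor of erythropoietin, was low in both tissues, at 8.81% and 10.4% in the embryos and 6.16% and 5.71% in the livers, with no call. Within gene bodies and flanks of this list, 17.8% of 529 tiles were called lower, fewer than the 46.5% of all gene-body tiles, 6.99% were lower by over 30 points against 5.17%, and 3.02% were called higher against 1.43%.

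Of 19 windows of blood transcription factors, 6 were called lower, 4 of them by over 30 points, and none higher, against 19.9% and 2.97% of all windows. Besides Lmo2 and Runx1, these included Spi1, the master factor of myeloid cells, from 78.3% and 79.6% to 38.7% and 40.4%, and Cbfa2t3, a corepressor, from 58.4% and 55.2% to 12.01% and 10.6%. In the embryos 5 windows of the list stood at 70% or more. All 5 were called lower and 3 by over 30 points, against 73.8% and 10.9% of all such windows. Windows of 11 others, with no call, stood under 10% in both tissues. Tal1 stood at 0.292% and 0.299% in the embryos and 0.687% and 0.583% in the livers, and Myb at 0.134% to 0.33% in all 4. Nfe2 and Lyl1 began low and were lower still in liver, at 17.5% and 11.9% against 0.848% and 0.310% for Nfe2, and at 12.1% and 17.0% against 2.91% and 1.95% for Lyl1, which left them short of 15 points. In the bodies and flanks of the list, 522 of 1,111 tiles (47.0%) were called lower, close to the 46.5% of all such tiles, while 138 (12.4%) were lower by over 30 points and 19 (1.71%) higher by over 30 points, against 5.17% and 0.325% of all gene-body tiles.

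Markers of other blood cells and of endothelium were also counted, against 19.9% of all windows called lower and 2.97% by over 30 points. Of 10 megakaryocyte windows 9 were called lower, 5 by over 30 points, with a median of -29.4 points. Treml1, a platelet receptor, went from 86.3% and 82.5% to 29.6% and 36.0%, and Itga2b, the platelet integrin, from 79.0% and 79.2% to 34.3% and 30.6%. Of 12 neutrophil windows 9 were called lower, 3 by over 30 points, led by Mpo, the peroxidase of granules, from 90.1% and 89.0% to 43.3% and 46.9%. Of 10 macrophage windows 9 were called lower, 3 by over 30 points, among them the mannose receptor gene Mrc1, from 77.5% and 82.5% to 40.6% and 37.8%. Of 14 endothelial windows 9 were called lower, 6 by over 30 points, while 4 stood under 10% in both tissues, 3 of these with both livers above both embryos. Tek, the angiopoietin receptor, went from 65.7% and 73.9% to 18.6% and 17.2%, and Cdh5, the cadherin of endothelium, from 81.2% and 80.4% to 38.2% and 46.1%. These lists start from high levels in the embryos, so the count to hold them against is that of windows at 70% or more. Of such windows, 7 of 8 for megakaryocytes, 9 of 11 for neutrophils and all 7 each for macrophages and endothelium were called lower. That compares with 73.8% of all such windows, so the excess over 19.9% partly goes with the starting level. Of such windows, falls of over 30 points were seen in 5 of 8 for megakaryocytes, 3 of 11 for neutrophils, 3 of 7 for macrophages and 5 of 7 for endothelium, against 10.9% of all. In bodies and flanks, tiles called lower made up 56.9% for megakaryocytes, 61.1% for neutrophils, 68.2% for macrophages and 59.7% for endothelium, against 46.5% of all gene-body tiles.

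Hepatoblast genes were counted in the same way. Of 19 windows of plasma protein genes 15 were called lower, with a median of -19.7 points, and 2 passed 30 points. Among the 14 at 70% or more in the embryos, 13 were called lower, against 73.8% of all such windows, and 2 passed 30 points, against 10.9%. Afp, the alpha-fetoprotein of fetal plasma, had 29,816 ± 2,164 CPM (SD, n = 3), and its window went from 89.0% and 86.6% to 61.7% and 65.3%. Trf, for transferrin, went from 67.1% and 76.8% to 31.1% and 28.9%, and Fgg, a fibrinogen chain, from 75.2% and 75.3% to 46.8% and 43.6%. The Alb window held too few counted CpGs, despite its abundant RNA. Of 15 windows of hepatoblast transcription factors 3 were called lower, a share like the 19.9% of all windows, including Hnf4a from 86.2% and 83.4% to 55.0% and 55.6%, and 9 stood under 10% in both tissues. The 3 called were also the only windows of this list at 70% or more in the embryos, against 73.8% of all such windows called lower. None of the 3 passed 30 points, against 10.9% of all such windows. In the bodies and flanks of the plasma protein genes, 197 of 251 tiles (78.5%) were called lower, against 46.5% of all gene-body tiles, and 7.97% by over 30 points, against 5.17%. None of 12 mesenchymal windows was called, 1 of which began at 70% or more in the embryos. Of 384 tiles of the mesenchymal list, 247 (64.3%) were called lower, and of 456 of the hepatoblast transcription factors 220 (48.2%).

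**Figure D5:**
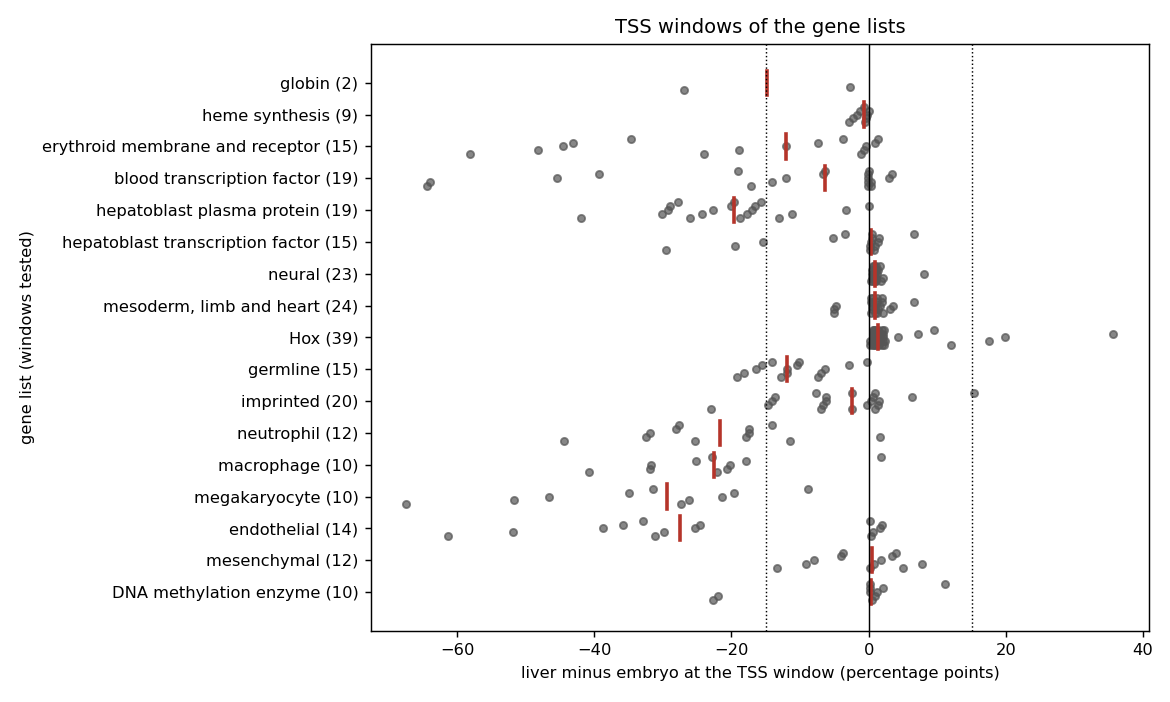
Difference in methylation of each TSS window (x axis, liver minus embryo, percentage points), with 1 point for each gene of the lists on the y axis, the list median in red and dotted lines at 15 points to either side of 0. Medians of the megakaryocyte and endothelial lists lie at -29.4 and -27.6 points, and those of the neural, mesodermal and Hox lists just above 0.

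Gains of methylation were rare and began from low or intermediate levels. The 150,699 tiles at 90% or more in the embryos could not rise by over 15 points. No tile at 70% or more could rise by over 30 points, so the low start of gains was partly set in advance. Tiles that rose by over 30 points went from a mean of 23.6% to 62.0%. Of tiles at 10% to 30% in the embryos 18.0% were called higher and of those at 30% to 50% 17.1%, whereas 795 of 28,520 tiles under 10% rose. The window of Cyp26c1 rose most, from 5.65% and 3.61% to 70.9% and 71.7% (edgeR adjusted p = 2.94e-24), with the livers above at 53 of 53 CpGs. Liver RNA held a mean of 0.0232 CPM of it, from 0, 0 and 0.0697 CPM in the 3 livers. The window of Scx, which encodes a transcription factor of tendon progenitors, rose from 6.99% and 4.94% to 61.3% and 55.9% (edgeR adjusted p = 8.47e-21), with 0.328 CPM in liver RNA, and the livers were above at 94 of 98 CpGs. Of the 10 largest rises, Exoc3l2 went from 17.2% and 18.2% to 69.6% and 68.7%, and Slc44a2, a choline transporter gene with 38.3 CPM in liver, from 33.6% and 34.3% to 72.1% and 72.7%. The others were 4933428G20Rik, 1700067K01Rik, Krtcap3, Gm16140, Ndst4 and Akap6, with rises of 37.2 to 56.5 points. Over all 91 windows called higher the median liver RNA was 0.379 CPM, against 0.0232 CPM for windows called lower, 25.9 CPM for windows under 10% in both tissues and 8.08 CPM for all windows. The median of windows called lower equals the mean of Cyp26c1 given above and lies near the floor of these counts.

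The strongest gains in regions of at least 2 called tiles lay mostly in CpG-rich exonic sequence inside genes. The region in Zfpm1, which overlaps the annotated Gm20388, covered 188 CpGs at chr8:124859001-124862000 and rose from 8.89% and 11.8% to 79.2% and 80.4%. Both livers lay above both embryos at 187 of 188 CpGs. In the same gene an intronic tile at chr8:124833001-124834000 fell from 83.2% and 83.5% to 11.3% and 12.98%, so Zfpm1 held changes in both directions. Sipa1, a regulator of the GTPase Rap1, rose from 8.44% and 8.002% to 77.2% and 74.99% at chr19:5653001-5656000. Sh2b3, an inhibitor of cytokine signalling in blood progenitors, rose from 12.5% and 14.98% to 72.1% and 76.3%. Runx1, whose TSS window fell, rose over exonic sequence further inside the gene, at chr16:92605001-92607000, from 10.2% and 11.98% to 76.4% and 68.2%. In the MommeD28 embryos this Runx1 region stood at 42.9% and 27.4%, above both wild-type embryos. The remaining large rises were in Tbkbp1, Atxn7l1, March3 and Por, with 58.2 to 59.8 points. The widest runs of tiles higher by over 30 points, listed after the data were seen, lay in or over Tnfaip2, Gse1, Jak3, Cyp26c1, Gm16140 and Taok3. That of Taok3, the gene with the largest fall, went from 30.3% and 30.1% to 76.1% and 78.4% at chr5:117690001-117694000.

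Of the 1,111 tiles of blood transcription factors 55 (4.95%) were called higher, against 1.43% of all gene-body tiles. The genes that follow had the largest rises of their lists after Zfpm1 and Runx1, with 8 of 21 tiles called higher in Gata2, 2 of 23 in Myb and 2 of 22 in Itga2b. In Gata2, a factor of blood progenitors, a tile went from 7.8% and 5.09% to 55.2% and 58.8%, and in Myb from 7.96% and 9.05% to 60.5% and 54.3%. Itga2b, whose TSS window fell, had one that went from 13.9% and 17.3% to 66.6% and 68.2%. These tiles are the largest rises of their genes.

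Hox genes, which set position along the body axis, were nearly silent in liver and mostly kept unmethylated starts. Of 39 windows 3 were called higher and none lower, against 0.491% and 19.9% of all windows. In the embryos 38 of the 39 stood under 10%, so these could not fall by over 15 points. Hoxb3 rose from 7.94% and 5.74% to 43.7% and 41.4% (edgeR adjusted p = 2.53e-13), Hoxb4 from 6.82% and 6.02% to 23.8% and 24.2%, and Hoxd4 from 8.27% and 9.16% to 28.1% and 29.1%. Hoxb3 and Hoxb4 share tiles, and an intronic one at chr11:96187001-96188000 went from 1.48% and 1.86% to 47.0% and 42.1%. Of 305 tiles in the Hox genes and their flanks 33 (10.8%) were called higher and 1 (0.328%) lower, against 1.43% and 46.5% of all gene-body tiles. The median difference of these tiles was 1.70 points, and those under 15% in the embryos could not be called lower. The 3 called windows contrast with 33 others that stood under 10% in both tissues.

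Genes of tissues that are present in the embryo and not typical of liver mostly kept low windows with slight rises. None of 23 neural windows was called, against 19.9% of all windows called lower and 0.491% higher. All 23 stood under 10% in the embryos, so none could fall by over 15 points. Their median difference was 0.95 points, and both livers lay above both embryos in 23 of 23. Sox2, a factor of neural progenitors, stood at 0.0908% and 0.110% in the embryos and 0.861% and 0.919% in the livers. In bodies and flanks, 10.2% of 295 neural tiles and 30.9% of 444 tiles of mesoderm, limb and heart genes were called lower, against 46.5% of all gene-body tiles. Tiles that began under 15% could not be called lower, and these shares were not matched by starting level. The median tile difference was 1.07 points for the neural list and 0.27 points for the mesoderm, limb and heart list. Of 24 windows of mesoderm, limb and heart genes none was called. In the embryos 20 of them stood under 10% and 2 at 70% or more, and the lowest difference was -5.12 points. Both livers were above in 19 of the 20 windows under 10%, and for Hox genes in 36 of 38. Over all 10,843 windows under 10% in the embryos both livers were above in 43.8% and both below in 23.9%, with a median of 0.17 points. The windows of haem synthesis genes went the other way, with both livers below in 7 of 9. Hepatoblast transcription factors, which are used in liver, also had both livers above in 10 of 10 low windows. These rises mostly were of about 1 point, and 96.4% of the low windows stayed under 10% in liver.

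Of 15 germline windows, which belong to genes silenced by methylation in the soma, 4 were called lower and none higher, against 19.9% of all windows lower, with a median of -11.95 points. Without embryo 2, 2 were called lower. Of the 13 at 70% or more in the embryos 3 were called lower, against 73.8% of all such windows. In bodies and flanks of the list, 125 of 191 tiles (65.4%) were called lower, against 46.5% of all gene-body tiles. Dazl, an RNA-binding protein of germ cells, stood at 53.5% and 55.5% in the embryos and 50.6% and 52.6% in the livers, a difference within the test's error (edgeR adjusted p = 0.504).

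Of 20 windows of imprinted genes, which are expressed from 1 parental copy, 1 was called lower and 1 higher, against 19.9% and 0.491% of all windows. The count lower was 4 without embryo 1 and 2 without liver 2. In the embryos 1 of the 20 windows stood at 70% or more, and it was called lower, against 73.8% of all such windows. Igf2, a fetal growth factor at 5,130 CPM in liver, went from 84.2% and 85.5% to 59.4% and 64.3%. Igf2r, the receptor that clears it, rose from 16.0% and 15.8% to 31.3% and 31.5%. Of 10 windows of DNA methylation enzymes 2 were called lower, a share like the 19.9% of all windows. These were Dnmt3l from 76.3% and 81.1% to 55.4% and 56.6%, and Tet1 from 87.0% and 85.4% to 62.4% and 66.1%. They were the only 2 windows of the list at 70% or more in the embryos, where 73.8% of all windows were called lower. Tet3 rose from 3.87% and 3.10% to 14.4% and 14.7%, which is under 15 points. The Dnmt1 window stood at 3.11% to 3.86% in all 4 libraries. In bodies and flanks, 43.2% of the tiles of imprinted genes and 33.2% of those of the enzymes were called lower, against 46.5% of all gene-body tiles.

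Short sequence motifs were counted in the tiles that fell or rose furthest. AGATAA, the core bound by GATA factors, was found on either strand in 40.8% of all tiles, 54.1% of those lower by over 30 points and 65.8% of those lower by over 50 points. The ETS core AGGAAG rose from 73.7% to 82.6% and 86.7%, and the RUNX core TGTGGT from 54.9% to 61.6% and 67.9%. Within tiles of 12 to 19 CpGs the GATA shares were 41.4%, 55.1% and 64.7%. Tiles higher by over 30 points held AGATAA in 31.7%, but the SOX core ACAAAGG in 29.9% against 19.6% of all tiles and TAATTA, a homeodomain core, in 26.8% against 21.3%. From all tiles to those lower by over 50 points, the shares went from 4.2% to 5.18% for HNF4 (CAAAGTCC), from 8.65% to 9.78% for KLF (CCACACCC), from 58.1% to 57.5% for bHLH (CATCTG) and from 13.4% to 13.3% for FOXA (TGTTTAC). A match of letters is not a bound site, and tiles of the same length differ in base composition, with a mean GC content of 47.0% over all tiles, 46.8% in those lower by over 50 points and 49.5% in those higher by over 30 points.

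The called tiles were looked up in the libraries that had not been used to call them. In tiles lower by over 30 points the MommeD28 embryos stood at 82.9% and 83.2% and the MommeD28 livers at 48.5% and 47.7%, and 99.8% of these tiles were lower by over 15 points between the mutant tissues, against 52.2% of all tiles. In tiles higher by over 30 points they stood at 26.8% and 28.2% against 63.5% and 62.6%, and 98.8% were higher by over 15 points, against 1.10% of all tiles. The embryos and livers without Rlf thus differed in the same direction at these tiles. E18.5 livers, compared by level only since the tiles were chosen on the E14.5 livers, stood at 34.2% and 35.0% in tiles lower by over 50 points, where the E14.5 livers stood at 22.6% and 25.1%. In tiles higher by over 30 points they stood at 63.2% and 63.0%, close to the 61.4% and 62.6% of the E14.5 livers. The Scx window, at 41.8% and 37.6% in E18.5 livers, lay between the embryos and the E14.5 livers.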

How the data were processed

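The authors sequenced bisulphite-treated DNA, spiked with lambda, as 100 bp paired reads. The authors trimmed the reads, mapped them with Bismark and Bowtie2 to mm9 carrying FVB substitutions, removed PCR duplicates and merged the strands of each CpG. The deposited files hold 2 counts for each CpG, of reads with and without methylation, beside a percent, and the percent equalled the ratio of the deposited counts within rounding. For RNA-seq, the authors deposited raw counts per gene, with totals of 13,438,331 to 14,621,004 in the 3 wild-type E14.5 livers, which were scaled to CPM. The wild-type and MommeD28 groups were taken from the labels.

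Levels are methylated reads as a percent of all reads over CpGs of the NCBIM37 reference on chromosomes 1 to 19 with at least 6 reads in all 4 libraries. Between 451,169 and 497,254 listed positions per library that are no reference CpG were left out. Tiles of 1 kb and windows of 1 kb to either side of the TSS of GENCODE vM1 protein-coding genes needed at least 8 such CpGs. They were tested with the quasi-likelihood test of edgeR 4.0.16 in R 4.3.3 on both counts of a library, with an intercept for each library and Benjamini-Hochberg adjustment over all tiles or windows. Calls needed an adjusted p under 0.05 and a difference over 15 points. The code was tested on simulated counts. The global level was compared by an exact two-sided permutation test. Alternatives covered the coverage minimum, thinning of the livers to embryo depth, limma 3.58.1, centring, larger differences, at least 12 CpGs, averaging, a replicate block and leaving out each library. Tables were handled with numpy 2.4.6 and pandas 2.3.3 and figures drawn with matplotlib 3.10.9.

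Embryo libraries held 339,591,671 and 356,814,842 autosomal CpG reads and liver libraries 687,391,092 and 697,227,249. Gaps between replicate tiles include counting error, and its share was not tested. The groups share replicate numbers 1 and 2, but nothing in the labels pairs an embryo with a liver.

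Named regions are the 8 largest falls and 8 largest rises among merged runs of at least 2 called tiles no more than 1 kb apart, and named windows are the 10 largest falls and rises, all without overlap between the groups. In the gene lists, up to 3 called members with the largest differences are named, and in some lists others that show the contrary. Spi1, Slc4a1 and Afp are named besides, after their values were seen. Of 286 list members 285 matched the annotation. The tissues, gene lists and tests were chosen with earlier results of these data known. The microRNA sequences come from RefSeq. H3K4me1 data and E18.5 mutant livers were not used here.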

Additional observations from a re-analysis of the deposited data

Results flagged for a closer look

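The reporter transgene, which was mapped as a sequence of its own and lies outside the autosomal comparison, carried methylation above the background of the lambda control. It stood at 8.55% ± 1.65 (SD, n = 2) in the wild-type embryos and at 12.4% ± 0.178 (SD, n = 2) in the wild-type livers, where lambda read as methylated at no more than 0.0583% and 0.0590%. The 2 embryos stood at 7.39% and 9.72% and the 2 livers at 12.5% and 12.3%, so the livers lay above the embryos here, against the autosomal fall. The array has many copies, and the level is a mean over them. The difference between the tissues was not tested beyond the exact permutation limit of p = 0.33 that 2 against 2 libraries allow.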

How the results depend on the processing

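The autosomal CpG methylation difference and the counts of tiles and TSS windows called lower or higher were recomputed under 53 alternatives. In 43 a count stayed within 1.5 times its main value or the autosomal difference stayed below 0. In the other 10 a count moved further. Counts could not reverse, and the autosomal difference did not, moving furthest to -16.2 points with an unweighted mean of CpG levels. Centred on the median difference, there were 28,162 tiles lower in liver and 59,960 tiles higher in liver, where a tile that did not change can count as higher. Tiles with at least 12 CpGs gave 136,980 and 4,872, with fewer tiles tested. With a difference over 30 points, 37,341 and 1,637 tiles and 550 and 14 TSS windows were called, and with over 50 points, added after seeing the data, 3,610 and 130 tiles. Thinning the livers to embryo depth gave 337,205 and 7,973.

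Leaving out each library in turn gave an autosomal difference of -14.8 to -12.7 points, 310,902 to 381,340 tiles lower in liver and 7,481 to 9,029 tiles higher in liver, 3,396 to 3,907 TSS windows lower in liver and 90 to 101 TSS windows higher in liver, with the lone library of a group assumed to vary like those of the other tissue. Libraries with the same replicate number did not deviate together (r = -0.00831 across tiles and -0.0248 across windows), and the replicate block gave 351,692 and 8,059 tiles and 3,691 and 91 TSS windows. Of 2,549 alternatives for 285 single windows, 12 lost the call, 8 gained it and none reversed. Of 168 for 28 entries of named regions, which list the Mir142 region under both rules, 10 moved beyond the replicate spread, all with at least 10 reads per CpG, and none reversed. Leaving out a library shifts a region by less than that spread, so only the coverage minimum and thinning could move a region under this rule. With 2 libraries a group the permutation limit is p = 0.33, and sex is not balanced between the tissues.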
